A study of Mus musculus with 62 samples.

Results

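The 10 core circadian clock genes Arntl, Clock, Per1, Per2, Per3, Cry1, Cry2, Nr1d1, Nr1d2 and Dbp were followed through ChIP-seq of mouse skeletal muscle. A peak belonged to a clock gene when the authors' annotation named that gene as the nearest one. By this rule, 198 of 297760 peaks in the 8 lists of H3K27ac (histone H3 acetylated at lysine 27, found at active enhancers and promoters) and 225 of 298522 peaks in the 8 lists of H3K4me2 (histone H3 dimethylated at lysine 4, found at enhancers and promoters) were clock gene peaks. In all, 19220 genes were named in the 16 lists, and each of the 10 clock genes had at least 1 peak in every list. This was common, as 9525 genes had a peak in all 8 H3K27ac lists and 13149 in all 8 H3K4me2 lists.

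Each list came from 2 ChIP-seq replicates of 1 group. All mice were male and labelled C57BL/6 (C57BL/6J in the methods, for the purchased wild-type mice), and all groups but Ex were sedentary. For the histone marks, EDL (extensor digitorum longus), Sol (soleus) and Dia (diaphragm) of wild-type mice were pooled from 3 animals per sample. Every Quad (quadriceps) sample for these marks was a single muscle. Besides the untreated wild-type Quad, 4 further Quad groups were profiled. Ex were wild-type mice with free access to running wheels for 4 weeks from 8 weeks of age and Sed were their controls without wheels. mTg were mice with the transgene PGC1a Tg(+), in which the muscle creatine kinase promoter drives the coactivator gene Pgc1a, and Wt were their wild-type littermates, with no age given for either. Ex muscle was taken some hours after the last bout of running. The time of day at harvest is not given in the sources used here for any group, so time of day and group cannot be told apart for these rhythmic genes. In tissue chromatin, fewer cells of a type and less of a mark per cell cannot be told apart either.

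The clock is a feedback loop of transcription. BMAL1, the product of Arntl, pairs with CLOCK and binds the E-box CACGTG to switch on the Per and Cry genes, whose proteins return to the nucleus and repress BMAL1 and CLOCK. The same pair switches on Nr1d1 and Nr1d2, which encode the nuclear receptors REV-ERBα and REV-ERBβ, repressors that bind ROR elements (AGGTCA with an AT-rich flank) and silence Arntl. Dbp encodes an activator of output genes that binds the D-box TTATGTAA. In skeletal muscle this loop is known for setting daily rhythms in genes of glucose and lipid use.

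Sequencing depth was 11.7 to 24.2 M tags (M, mega) over the 16 H3K27ac libraries, 6.41 to 22.7 M over the 16 H3K4me2 libraries (the lowest being mTg replicate 1) and 7.72 to 22.9 M over the 11 inputs. The myosin genes went with the muscle labels, and the troponin genes did so only in part. Myh7, the slow myosin heavy chain gene, had an H3K27ac peak only in Sol and Dia among the 8 groups. The highest peak of the fast gene Myh4 stood at the 96.7th percentile in Quad but at the 3.9th in Sol. The slow troponin gene Tnnt1 stood at 83.4 in Sol, but at 24.3 in Dia and 31.2 in Quad. No peak was named for the fast troponin gene Tnnt3 in EDL, Quad or Sed, while it stood at 97.4 in Sol and 97 in Dia. Here and below, a percentile ranks a peak's level within its own list, with 100 at the top. The level is the deposited log2 value of normalized tags, averaged over the replicates, less the log2 of the peak's length in kb. With 2 replicates and 1 list per group, errors are given as both replicate values.

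Open chromatin within the clock gene peaks is shown first, because it places the loop's own binding words in the muscle regions measured here. The Quad ATAC-seq list (transposase-accessible sites, pooled by the authors from 3 control libraries) held 44911 peaks, of which 27 lay inside Quad H3K27ac peaks of the clock genes. Of the 26 such H3K27ac peaks, 18 held an ATAC peak, against 57.2% of all 40949 Quad H3K27ac peaks. The clock gene peaks were longer, with a median of 2.6 kb against 1.55 kb, and among peaks of at least 2.6 kb 13 of 13 clock gene peaks and 86.4% of all held one. The sequences of 9 of the 27 ATAC peaks follow, from RefSeq's GRCm38.p6 (the assembly behind mm10), each 195 bases on the plus strand. They were chosen among peaks with a clock word and no bases of a UTR, with at most 1 per gene, and capitals mark the words. A Clock peak with a ROR element also met this rule and is not shown. In the labels below, "at the start site" means over it or a short way upstream, and the peaks of Per3 and Dbp lie wholly upstream.

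Arntl, intron 1, chr7:113216392-113216586, ROR element TGGGTCA: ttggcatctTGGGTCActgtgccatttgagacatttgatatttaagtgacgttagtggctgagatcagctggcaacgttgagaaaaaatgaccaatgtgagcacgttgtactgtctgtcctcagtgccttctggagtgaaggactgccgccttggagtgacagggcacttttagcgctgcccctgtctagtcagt
Per1, before the start site used by the lists and inside the RefSeq gene span, chr11:69097104-69097298, CRE: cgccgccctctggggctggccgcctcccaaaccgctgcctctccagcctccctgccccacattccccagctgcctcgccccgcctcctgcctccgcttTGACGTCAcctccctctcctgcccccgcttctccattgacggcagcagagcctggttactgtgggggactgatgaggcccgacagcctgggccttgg
Per2, at the start site, chr1:91459325-91459519, D-box read on the minus strand: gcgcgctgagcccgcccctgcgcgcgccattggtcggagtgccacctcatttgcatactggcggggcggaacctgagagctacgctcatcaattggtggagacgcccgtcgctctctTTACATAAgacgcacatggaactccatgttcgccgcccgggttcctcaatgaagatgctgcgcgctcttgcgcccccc
Per3, at the start site, chr4:151044738-151044932, a pair of D-boxes read on the minus strand: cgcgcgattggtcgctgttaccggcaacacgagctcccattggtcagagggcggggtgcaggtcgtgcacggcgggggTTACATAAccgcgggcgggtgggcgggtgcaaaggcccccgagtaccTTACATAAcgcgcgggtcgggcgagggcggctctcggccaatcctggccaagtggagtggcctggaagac
Cry1, intron 1, chr10:85161847-85162041, a pair of ROR elements, one on each strand: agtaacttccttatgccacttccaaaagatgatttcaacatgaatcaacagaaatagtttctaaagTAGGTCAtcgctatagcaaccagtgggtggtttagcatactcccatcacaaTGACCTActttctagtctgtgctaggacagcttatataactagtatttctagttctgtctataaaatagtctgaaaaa
Cry2, within the gene, chr2:92423758-92423952, a pair of E-boxes and a ROR element: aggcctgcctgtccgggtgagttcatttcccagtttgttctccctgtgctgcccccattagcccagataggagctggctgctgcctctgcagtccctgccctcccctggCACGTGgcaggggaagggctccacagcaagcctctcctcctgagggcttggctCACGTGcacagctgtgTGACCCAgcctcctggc
Nr1d1, upstream, chr11:98788950-98789144, a pair of E-boxes: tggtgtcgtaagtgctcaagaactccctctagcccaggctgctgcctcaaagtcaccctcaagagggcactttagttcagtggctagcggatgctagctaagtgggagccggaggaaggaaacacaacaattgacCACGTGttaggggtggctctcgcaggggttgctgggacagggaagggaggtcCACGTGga
Nr1d2, intron 1, chr14:18238508-18238702, 3 E-boxes and a D-box: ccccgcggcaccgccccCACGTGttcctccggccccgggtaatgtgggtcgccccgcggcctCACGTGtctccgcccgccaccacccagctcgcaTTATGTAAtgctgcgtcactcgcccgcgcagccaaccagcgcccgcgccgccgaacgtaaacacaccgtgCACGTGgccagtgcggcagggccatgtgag
Dbp, at the start site, chr7:45704868-45705062, ROR element TAGGTCA: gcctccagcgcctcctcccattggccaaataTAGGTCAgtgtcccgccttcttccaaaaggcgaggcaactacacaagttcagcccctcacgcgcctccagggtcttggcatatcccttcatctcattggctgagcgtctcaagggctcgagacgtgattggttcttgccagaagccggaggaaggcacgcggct

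The words searched, on both strands, were the E-box CACGTG, the D-box TTATGTAA, the ROR element as TAGGTCA or TGGGTCA, and the CRE (cAMP response element) TGACGTCA. The E-box was present in 6 of the 27 clock gene ATAC peaks (22.2%, 95% Wilson interval 10.6 to 40.8), against 4.55% of all ATAC peaks and 5.02% of those inside any Quad H3K27ac peak. The D-box was present in 4 of 27 (14.8%, 5.92 to 32.5), against 0.886% and 0.944%. The ROR element was present in 6 of 27 (22.2%, 10.6 to 40.8), against 5.91% and 5.8%, whereas the CRE was in 1 of 27 (3.7%, 0.657 to 18.3), against 1.28% and 1.66%. For all but the CRE, the interval of the clock gene peaks lay above both shares. These intervals cover counting error only, and the peaks are not independent, since several share a gene. A word is a match of letters and not a measured binding site. With each ATAC peak widened to 400 bases, a setting chosen after the data were seen, the shares were 25.9%, 14.8%, 25.9% and 3.7%, against 7.76%, 1.48%, 10.7% and 1.5% of all ATAC peaks.

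**Figure D1:**
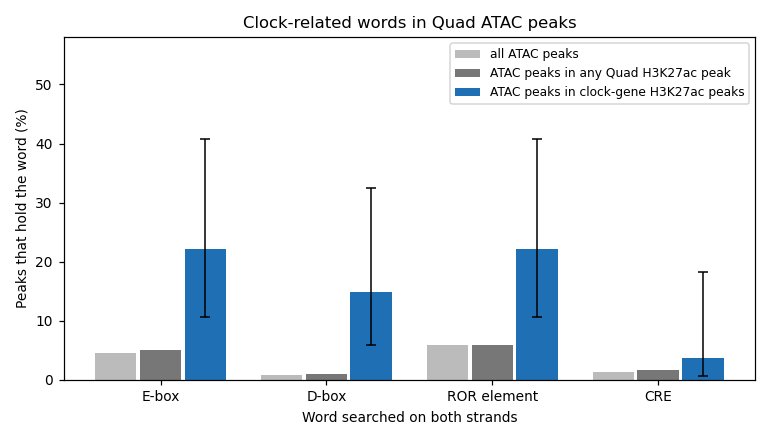
The share of Quad ATAC peaks (%) that hold each word on either strand is plotted for all 44911 peaks, for those inside any Quad H3K27ac peak and for the 27 inside clock gene peaks, with 95% Wilson intervals on the last. The E-box, D-box and ROR bars of the clock genes (22.2%, 14.8% and 22.2%) stand above both grey bars, while the CRE interval (0.657 to 18.3%) spans both grey CRE bars.

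The words were spread by gene. E-boxes lay in ATAC peaks of Per1, Cry1, Cry2, Nr1d1 and Nr1d2, and most densely at Nr1d2, in the intron 1 sequence with 3 of them. ROR elements lay in those of Arntl, Clock, Cry1, Cry2, Nr1d2 and Dbp. The D-boxes lay in those of Per2, Per3, Nr1d1 and Nr1d2. Among the 250 bases upstream of start sites in the RefSeq promoter table (32851 windows, 13 of them of clock genes, with Per2 not matched), the E-box was found at Cry1 and Per1 (6.02% of all windows), the D-box only at Per3 among the clock genes (0.819% of all windows), and neither the ROR element (5.38%) nor the CRE (1.55%) at any.

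Of the 198 H3K27ac peaks, 123 were in introns (62.1%, against 49.4% of all peaks), 21 in promoters, 32 between genes and 22 in other classes, and of the 225 H3K4me2 peaks the counts were 129 (57.3%, against 52% of all peaks), 19, 44 and 33. Arntl, the longest of the 10 genes at 135656 bp, had 3 to 7 H3K27ac peaks and 5 to 12 H3K4me2 peaks per list. Clock and Dbp each had a single H3K27ac peak in all 8 lists, for Clock at its promoter. Merging overlapping peaks over groups gave 29 H3K27ac regions of clock genes, of which 14 were present in all 8 groups, against 21.8% of all 63451 merged regions. For H3K4me2 it was 14 of 34 clock gene regions, against 25.7% of 66361.

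Per1 and Dbp carried some of the densest H3K27ac of the muscle genome. Across genes with an H3K27ac peak in all 8 lists, 4.39% (418 of 9525) had a peak at or above the 95th percentile in every list, and 4 of the 10 clock genes did, namely Per1, Dbp, Nr1d1 and Nr1d2. For H3K4me2 the share was 1.29% (169 of 13149) and the clock genes were 2 of 10, Per1 and Cry1. Among 20 other genes of the clock, described further on, 1 of 19 with a peak in all lists passed for H3K4me2 (Wee1, a cell cycle kinase).

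Per1, a light- and hormone-responsive repressor gene, had a broad H3K27ac peak of 7.3 to 10.07 kb over its start site and upstream. In Quad 2 Per1 peaks were called and in each other list 1. The broad peak ranked 1st of 35750 peaks in EDL, 2nd of 40949 in Quad, 3rd in Sol, 1st in Dia, 7th in Sed, 8th in Ex, 1st in Wt and 12th in mTg. At this region the levels per kb, set relative to the median of 6909 regions matched in all 8 lists, were 2.06 and 1.95 (log2) in the EDL replicates, 2.09 and 2.03 in Quad, 1.91 and 1.78 in Sol, and 2.4 and 2.13 in Dia. They were 1.73 and 1.32 in Sed, 1.66 and 1.53 in Ex, 2 and 1.88 in Wt, and 1.55 and 1.61 in mTg. Dia was highest, apart from Quad below it, and all 4 muscles of the first set lay above both Sed and Ex. The densest H3K4me2 peak of Per1 also stood at the top, at the 97.1 to 100th percentile. In mTg this mark was called as 3 Per1 peaks, and the one nearest the start site stood at the 64.4 percentile.

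Dbp, the output activator, had 1 H3K27ac peak of 5.97 to 7.78 kb that covered most of the gene of 5104 bp. It ranked 2nd in EDL, 3rd in Quad, 1st in Sol, 2nd in Dia, 6th in Sed, 17th in Ex, 6th in Wt and 7th in mTg. The relative levels per kb were 1.8 and 1.87 in EDL, 1.81 and 1.93 in Quad, 2 and 2.06 in Sol, and 2.17 and 2.23 in Dia. They were 1.61 and 1.51 in Sed, 1.18 and 1.79 in Ex, 1.79 and 1.61 in Wt, and 1.6 and 1.74 in mTg. Dia and Sol headed the order without overlap with the next group, whereas the wide gap between the Ex replicates covered both those of Sed. Its H3K4me2 ranged from the 87.2 percentile in mTg to 99.8 in Quad.

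The REV-ERB genes had long, dense peaks. At Nr1d1 the densest H3K27ac peak stood at the 98.1 (Sed) to 99.8 (Quad) percentile and was 8.74 to 21.83 kb long. In 6 lists that peak was upstream, centred between -10165 and -9603 bp from the start site, and in Dia 1 peak spanned this site and the gene. In EDL the densest peak named for Nr1d1 lay over the gene. The EDL list names another gene for its upstream peak, which was denser. Relative to the median of regions shared with Quad, it had 2.01 and 2.22 per kb, against 1.66 and 1.9 over the gene. The end of Nr1d1 overlaps that of Thra on the other strand, so peaks over that end cannot be split between these genes. At Nr1d2 the densest peak lay over the start of the gene at the 96.4 (Sed) to 98.9 (Wt) percentile, with H3K4me2 from 68.9 in mTg to 98.5 in Quad, while that of Nr1d1 ran from 83.9 in Wt to 96.6 in Ex. In mTg the H3K4me2 replicates of Nr1d2 were far apart, at 59.5 and 82.9.

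CLOCK and BMAL1 are the activating pair. Clock had its single promoter peak between the 88.3 (Quad) and 98.8 (Ex) percentile of H3K27ac and between 81 (mTg) and 94.8 (EDL) of H3K4me2. For Arntl the densest H3K27ac peak ran from the 72.6 percentile in Sol to 90.9 in Sed, the lowest of the 10 genes at both ends, and its H3K4me2 from 65.6 in mTg to 96.2 in Wt. The site of the densest Arntl peak differed by group: it was in intron 1 in EDL and Quad and at the start site in the other 6.

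The other Per and Cry genes encode repressors of that pair. Per2 was at the 91.6 (Sed) to 99 (mTg) percentile of H3K27ac, with the densest peak in an intron 22924 bp downstream in Sed and at the start of the gene in mTg. Per3 was at 91.3 (Ex) to 99.9 (mTg). Cry1 was at 82.7 (Ex) to 99.9 (Wt), all at its promoter. Cry2 was at 78.5 (mTg) to 93.2 (Wt), and its H3K27ac formed a single domain of 13.6 to 14.7 kb in EDL, Quad, Sol, Dia, Sed and Ex but was called as shorter pieces in Wt and mTg. For H3K4me2 Per2 was at 76 to 88.9, Per3 at 69.6 to 96.3, Cry1 at 96 to 99.3 and Cry2 at 75 to 99.4.

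**Figure D2:**
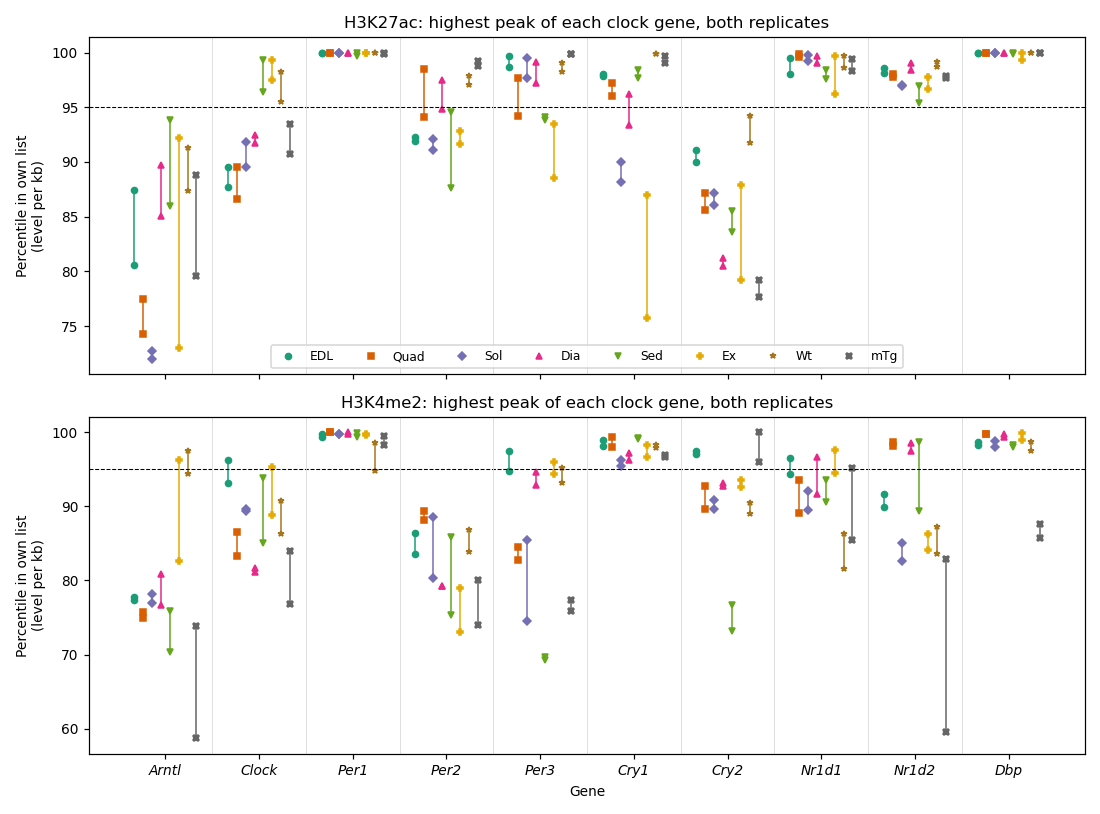
The percentile (level per kb, within its own list) of each clock gene's densest peak is plotted for both replicates of the 8 groups, H3K27ac above and H3K4me2 below, with a dashed line at the 95th percentile. Per1 and Dbp sit at the top of the H3K27ac panel in all groups, and the Ex replicates of Arntl (92.2 and 73) and Cry1 (87 and 75.7) are among the widest apart.

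Across the 8 groups, few clock regions could be matched one to one in every list. Of 6909 such H3K27ac regions 6 were of clock genes, with ranges of group means of 0.68 to 1.51 (log2) against a median of 0.8 over all. The Cry1 promoter region had the range of 1.51, at the 96.2 percentile of all ranges. The called peak was 1.62 kb long in Wt, 2.82 kb in Ex and 3.05 kb in Sol, and with the level of the whole peak, a setting chosen after the data were seen, the range was 0.92, at the 50.7 percentile. Its relative levels per kb were 1.4 and 1.38 in Wt, 1.37 and 1.01 in mTg, 0.69 and 0.92 in Sed, 0.78 and 0.76 in EDL, 0.67 and 0.55 in Quad, 0.48 and 0.69 in Dia, 0.13 and 0.2 in Sol, and 0.09 and -0.32 in Ex. In this order of means, Sed and EDL overlapped, as did Quad and Dia, and every other pair of neighbours was apart. The H3K4me2 at the Cry1 start was nearly level instead, with a range of 0.24 at the 2.7 percentile of 13053 regions matched for that mark.

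The other matched H3K27ac regions had smaller ranges per kb. The ranges of H3K27ac were 0.93 at the Arntl start site, 0.89 at the Clock promoter, 0.74 at Per1, 0.71 at Dbp and 0.68 at an intronic Per2 region, at the 35.9 to 64.2 percentile of all ranges. At the Clock promoter Ex (1.16 and 0.72), Sed (0.58 and 1.12) and Wt (0.43 and 0.71) headed the order, each overlapping the next, and Quad (0.12 and -0.03) was lowest. For H3K4me2 10 clock regions were matched, with ranges from 0.24 at Cry1 and Clock to 0.83 over Nr1d1, against a median of 0.55 over all. The second widest per kb was the Arntl start region (0.81), with Wt on top (0.51 and 0.37) and Ex lowest (-0.37 in both), but its peak was 2.97 kb in Wt and up to 5.74 kb elsewhere, and with the whole peak mTg was highest and Wt next to lowest.

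**Figure D3:**
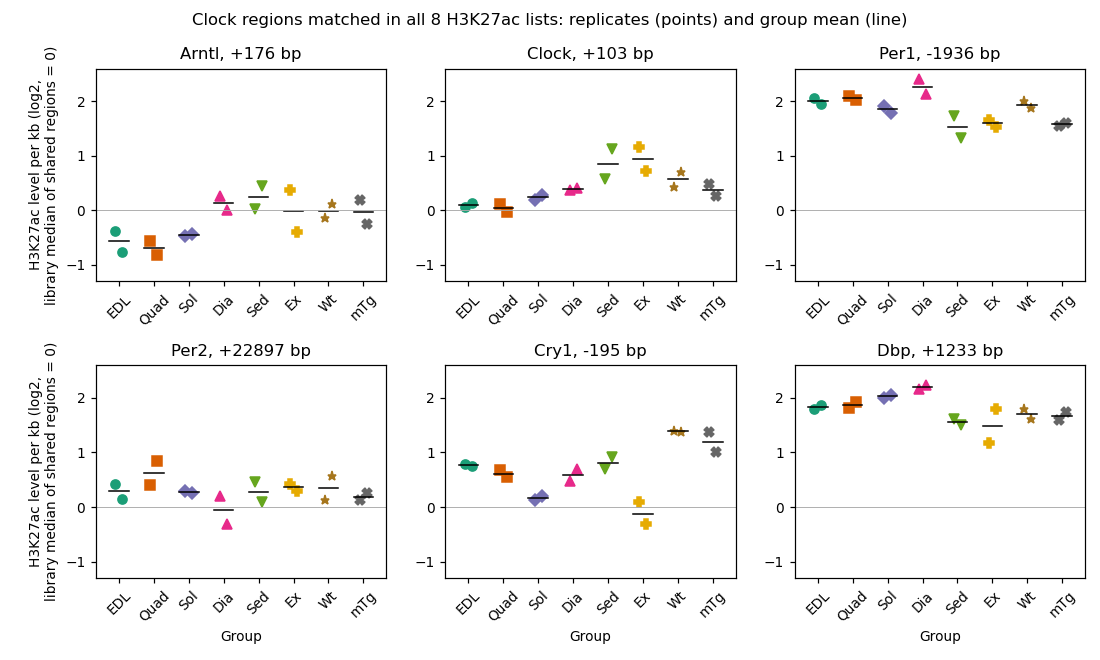
The relative log2 H3K27ac level per kb is plotted by group for the 6 clock regions matched in all 8 lists, with points for replicates and a line at the group mean. The Cry1 promoter spans 1.51 between Wt and Ex per kb (0.92 over the whole peak), while Per1 and Dbp stay above 1 in all 16 libraries.

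To ask where the marks differed between groups, regions of each pair of lists were matched at a reciprocal overlap of 50% or more and their levels per kb centred on the median of the pair. A region was counted as apart when the centred means differed by over 2-fold and the replicates did not overlap. Because the authors normalized each list separately, these values have no test. Over 11 pairs, 3 of 182 comparisons of clock regions were apart for H3K27ac and 1 of 193 for H3K4me2, against 5217 of 219971 and 2799 of 260169 over all regions.

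Between muscles, the regions of clock genes were apart about as rarely as all regions. Over all regions 0.644% were apart in Quad against EDL, 2.88% in Sol against EDL, 3.11% in Dia against EDL, 3.74% in Sol against Quad, 4.26% in Dia against Quad and 1.65% in Dia against Sol. Of 14 to 18 clock regions in each pair, 1 was apart in Sol against EDL, 1 in Dia against Quad and 0 in each of the other 4. The median difference of the clock regions lay between -0.22 (Sol against EDL) and 0.28 (Dia against Sol), against 0 over all regions by the centring. In Dia against Quad 13 of 16 were higher in Dia, the most one-sided of these pairs. It was 11 of 14 in Dia against Sol, 9 of 15 in Dia against EDL and 7 of 17 in Sol against Quad. In Quad against EDL and in Sol against EDL 5 of 18 were higher in the first. Several regions share a gene, so these counts are not of independent regions.

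The first of these was the Arntl intron 1 region, 8663 bp downstream of the start site. Its centred levels were 0.87 and 0.56 in EDL and -0.09 and -0.44 in Sol, a difference of -1.02 (2.02-fold). Without EDL replicate 1 the difference was -0.85 and without Sol replicate 2 -0.83, both short of 2-fold. The second was the Cry1 intron 1 region at 23588 bp, the one with a pair of ROR elements above. Its levels were 0.33 and 0.38 in Quad and -0.62 and -0.65 in Dia, a difference of -1.02 (2.03-fold), which became -0.56 without centring. It was past 2-fold whichever library was left out (-1.04 to -1.01), and H3K4me2 there was also lower in Dia (-0.86, at 0.26 and -0.02 in Quad and -0.63 and -0.82 in Dia).

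Other muscle differences fell short of 2-fold. The Cry1 promoter was lower in Sol than in EDL by 0.79 on the log2 scale of H3K27ac (1.6 and 1.56 in EDL, 0.82 and 0.84 in Sol). An intronic Per2 region at 16457 bp was higher in Dia than in EDL (0.84, with -2 and -2.01 in EDL and -0.88 and -1.41 in Dia). The Arntl start site was higher in Dia than in Quad (0.86, with 0.09 and -0.19 in Quad and 0.95 and 0.74 in Dia). In each of these the replicates did not overlap. Over the whole peak the differences were -0.31, 1.77 and 0.64 in the same order, since the peaks differed in length. For H3K4me2 the shares over all regions were 0.453%, 0.626%, 0.678%, 1.88%, 1.58% and 0.439% in the same order of pairs, and 0 of 15 to 20 clock regions were apart in any of the 6.

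The 3 untreated Quad sets show how far clock regions differ with no treatment. For H3K27ac 1.07% of regions were apart in Sed against Quad, 1.36% in Wt against Quad and 0.495% in Wt against Sed, and 0 of 17 to 18 clock regions in each. Even so, the Arntl start site was higher in Sed than in Quad by 0.96 (0.14 and -0.13 in Quad, 0.73 and 1.29 in Sed) and the Clock promoter by 0.84 (0.82 and 0.66 in Quad, 1.29 and 1.96 in Sed), both without overlap. For H3K4me2 the shares were 0.739%, 2.69% and 1.78%, with 0 of 20, 1 of 20 and 0 of 18 clock regions. The 1 region was a short Arntl peak centred at -21260 bp, at -0.36 and -1.05 in Quad and -2.19 and -1.78 in Wt (-1.31, or 2.48-fold), and without Quad replicate 1 it was -0.96.

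**Figure D4:**
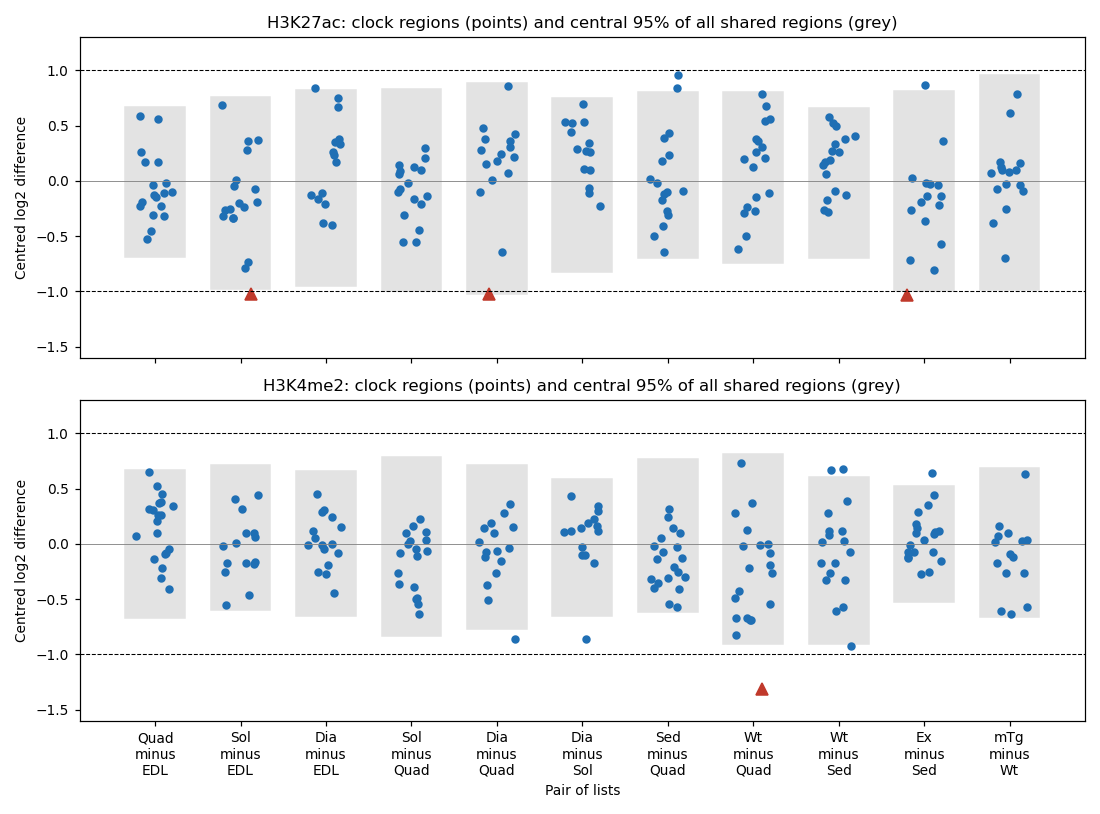
The centred log2 difference of each clock region is plotted for the 11 pairs of lists, H3K27ac above and H3K4me2 below, with the central 95% of all shared regions in grey, dashed lines at 2-fold and triangles for regions counted as apart. The 4 triangles are Arntl in Sol against EDL, Cry1 in Dia against Quad and in Ex against Sed, and for H3K4me2 Arntl in Wt against Quad.

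In exercised Quad, clock H3K27ac was mostly near or below that of Sed. Of 16 clock regions 3 were higher in Ex, the median difference was -0.16 against 0 over all regions by the centring, and 1 was apart, against 3.17% of all 18426. That region was the Cry1 promoter, centred at -161 bp, with 1.33 and 1.6 in Sed and 0.75 and 0.21 in Ex (-1.03, or 2.05-fold). The call rests on single libraries and on length: it was -0.95 without Sed replicate 2 and -0.8 without Ex replicate 2, and the Ex peak was longer (2.82 against 1.99 kb), so that over the whole peak the difference was -0.48. H3K4me2 at the Cry1 start differed by -0.12 per kb (0.9 and 0.94 in Sed, 0.76 and 0.86 in Ex) and by 0.06 over the whole peak.

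The next largest decreases were at Arntl intron 1 (-0.81), at a Per3 region centred at -6202 bp (-0.72, with -0.86 and -0.82 in Sed and -1.27 and -1.77 in Ex) and over the start of Per2 (-0.57, with 0.79 and 0.8 in Sed and 0.41 and 0.14 in Ex). The largest increase per kb was at an Arntl region at -21575 bp, before the listed start site (0.87, with -0.76 and -0.44 in Sed and 0.01 and 0.62 in Ex). Lengths bear on these values too: over the whole peak they were -1.52 at Arntl intron 1, -1.46 at Per3, -0.12 at Per2 and 0.39 at the -21575 bp region, with overlapping replicates at the last pair. At Per1 (-0.04), Clock (-0.02), Dbp (-0.19) and upstream of Nr1d1 (0.03) the replicates of the groups overlapped. For H3K4me2 0 of 20 clock regions were apart, against 0.0925% of all, and the largest difference was at the Per3 start region, higher in Ex by 0.64 per kb (0.05 and 0.08 in Sed, 0.74 and 0.68 in Ex). The Per3 peak was 5.38 kb in Sed and 3.32 kb in Ex, and over the whole peak the difference was -0.01 with overlapping replicates.

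The authors' lists of differential H3K27ac held 1 clock gene region, and it was lower in Ex. Of genes with an H3K27ac peak in Ex or Sed, 10.6% (1574 of 14815) had a region in the list of hypoacetylated regions and 2.34% (347) in that of hyperacetylated ones, and the clock genes were 1 of 10 (Arntl) and 0 of 10. For mTg against Wt the shares were 9.22% (1409 of 15286) hyperacetylated and 4.38% (670) hypoacetylated, and the clock genes were 0 of 10 in both. The clock gene shares were thus near or below the background.

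The region was in intron 1 of Arntl, chr7:113215837-113218701 (mm10), 2864 bp long and centred 9804 bp downstream of the start site. The ATAC peak of Arntl printed above, with the ROR element, lies inside it. The log2 levels, normalized together in that list, were 8.48 and 8.3 in Sed and 7.78 and 7.38 in Ex, so both Ex libraries lay below both Sed libraries. The difference was -0.81 ± 0.21 (SE, 2 against 2), or 1.75-fold lower, with an adjusted p of 0.000499 by limma (two-sided, Benjamini-Hochberg over 2280 regions). Since the authors put regions in this list because they differed, the p describes how far the replicates separate, and limma passes 99.7% of the list. Within the list the region ranked 802 of 2280 by size of change, close to the median of -0.76. Without Ex replicate 2 the difference was -0.61 with an adjusted p of 0.0638 by limma. p-values here measure the spread between single muscles of different mice, 2 per group.

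The same intron carried H3K27ac in all 8 groups. In the separate lists its percentile was 84.1 in Sed, 63 in Ex, 84.3 in EDL, 76.3 in Quad, 55.3 in Sol, 78.6 in Dia, 86.6 in Wt and 78.6 in mTg. Ex and Sol were thus the lowest of the 8. H3K4me2 at the intron differed by 0.11 per kb between Ex and Sed, with overlapping replicates (-0.67 and -0.5 in Sed, -0.54 and -0.4 in Ex), and by -0.36 over the whole peak, and H3K27ac by -0.03 between mTg and Wt.

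**Figure D5:**
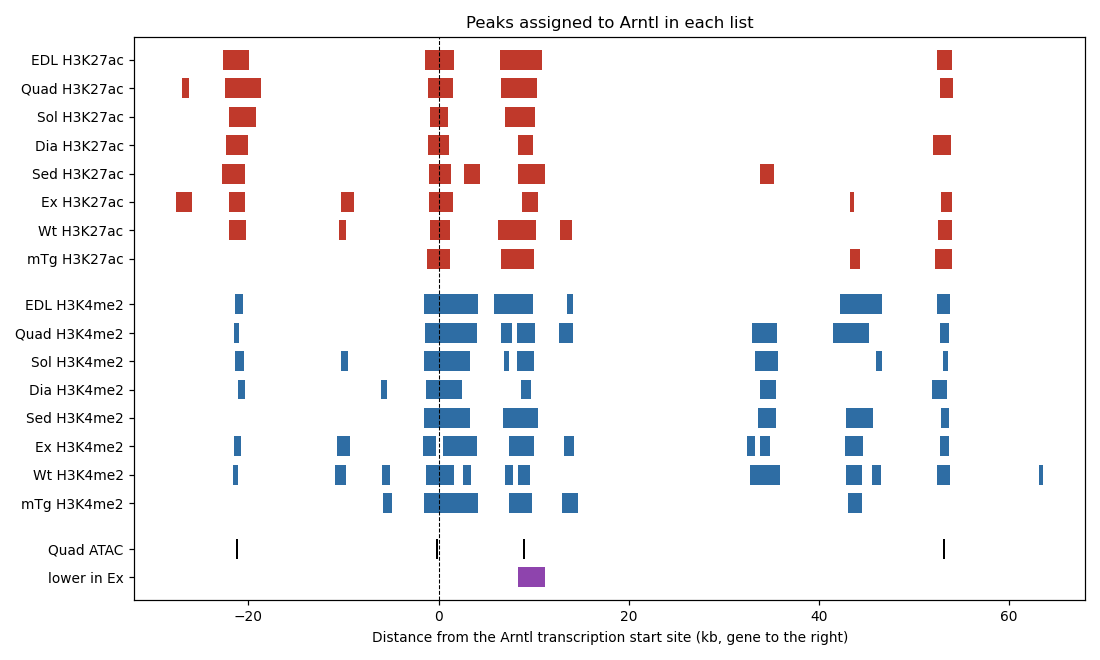
Peaks assigned to Arntl in each of the 16 lists are drawn to scale against distance from the start site (kb), with the Quad ATAC peaks and the region listed as hypoacetylated in Ex below. H3K27ac lies over the start site and over intron 1 in all 8 groups, and the region lower in Ex covers the intron 1 ATAC peak.

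Percentiles of marker genes of other cells differed between Sed and Ex as well. The median percentile of the highest H3K27ac peaks of muscle fiber genes was 85.7 in Sed and 68.7 in Ex (8 and 9 of 10 genes with a peak), that of endothelial genes 62.8 and 82.7 (4 of 4 in both), that of fibroblast genes 60.1 and 81.1 (4 of 4 in both) and that of macrophage genes 14.8 and 35 (4 and 5 of 5). The macrophage gene Cd68 had no peak in Sed. Adipocyte genes stood at 30.3 and 47.1 (1 and 3 of 3) and smooth muscle and pericyte genes at 56.1 and 57.9 (3 of 3). Satellite cell genes stood at 16 and 9.1 (2 and 1 of 2) and Schwann cell genes at 47.1 and 43.4 (1 and 2 of 3). By qPCR of marker mRNA, the paper found the mix of cells in Ex muscle unchanged. Des, Myh1 and Myh4 of the fiber genes had a region in the list lower in Ex and Col1a2 of the fibroblast genes in the list higher in Ex. The part of these markers in the clock gene values was not tested.

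Other genes of the clock gave more regions in these lists. The list of 20 included Rora, Rorb, Npas2, Arntl2, Tef, Hlf, Nfil3, Bhlhe40, Bhlhe41, Ciart, Csnk1d, Csnk1e, Fbxl21, Btrc, Usp2, Timeless, Wee1 and Nampt, and 8 of the 20 had a region lower in Ex, against the 10.6% of genes above, and 0 of 20 one higher. Regions are assigned to the nearest gene, and several lay far from its start site. Those of Nampt lay at -214110 to -142061 bp, that of Rorb at -107483 bp and those of Rora at -236751, -99782 and 34406 bp. Nfil3, a repressor that competes for D-boxes, had 11.39 and 11.24 in Sed and 10.73 and 10.15 in Ex over its start (-0.87 ± 0.21, limma adjusted p = 0.000244). Ciart, a repressor of CLOCK and BMAL1, had 9.16 and 8.98 in Sed and 8.39 and 8.2 in Ex (-0.78 ± 0.21, limma adjusted p = 0.00068). At each of these regions both Ex libraries lay below both Sed libraries, but the authors listed the regions because they differed. The p-values thus only describe how far the replicates separate, and limma passes 99.7% of the list. Regions were also listed for Rora, with 3 (-0.8 to -0.61), Nampt with 3 (-0.9 to -0.8), Rorb (-0.78) and Tef (-0.59).

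Between mTg and Wt, the shares of clock regions apart were near those of all regions. For H3K27ac 0 of 16 were apart, against 4.64% of all 17444, with a median of 0.08 and 9 higher in mTg. The largest differences per kb were at an Arntl intron region at 53260 bp (0.79, with -0.36 and -0.32 in Wt and 0.33 and 0.53 in mTg), upstream of Cry2 at -3667 bp (-0.7, with 0.01 and 0.13 in Wt and -0.81 and -0.5 in mTg) and in Per2 at 7989 bp (0.61, with -1.41 and -0.83 in Wt and -0.42 and -0.64 in mTg). Over the whole peak these were 1.09, -0.37 and 0.52, and by that measure the Arntl region counted as apart. At the start sites of Arntl, Clock, Cry1, Dbp and Nr1d2 the replicates overlapped per kb and the differences lay between -0.09 and 0.1. With the centring over all 8 lists, the Cry1 replicates were just apart (1.4 and 1.38 in Wt, 1.37 and 1.01 in mTg). Over the whole peak the differences ran from -0.22 at Dbp to 0.35 at Arntl, and at Dbp and Cry1 (0.23) the replicates did not overlap. At Per1 mTg was lower without overlap (-0.25, with 2.69 and 2.56 in Wt and 2.36 and 2.34 in mTg). Markers of several other cells were lower in mTg. The median percentile was 74.8 in Wt and 52.3 in mTg for endothelial genes (4 of 4 with a peak) and 81.3 and 57.4 for fibroblast genes (4 of 4). It was 52.9 and 33.4 for macrophage genes (5 and 4 of 5), 56.9 and 33.4 for smooth muscle and pericyte genes (3 of 3) and 55.6 and 35.1 for adipocyte genes (3 of 3). Satellite cell genes stood at 42.1 and 43 (2 and 1 of 2), Schwann cell genes at 56.1 and 54 (2 of 3 in both) and fiber genes at 96 and 95.9. Single genes went the other way, among them Cdh5 (39.9 and 45.8) and Plin1 (14 and 57.8). By qPCR, the paper instead found mRNA of macrophage and endothelial genes raised in mTg muscle. The part of these markers in the clock gene values was not tested. For H3K4me2 0 of 15 were apart, against 0.724% of all, and the largest differences per kb were at Arntl at -5545 bp (0.63) and upstream of Cry1 at -36546 bp (-0.63). Of the other clock genes, 3 of 18 had a region higher in mTg, against 9.22% of all genes (Npas2 0.55, Nfil3 1.17, and 0.96 and 0.54 at Nampt). Lower regions were found at 3 of 18, against 4.38% (Rora -0.72, Btrc -0.67 and Hlf -0.49). The largest change, at an intergenic region -86805 bp from Nfil3, had 7.57 and 7.79 in Wt and 8.86 and 8.84 in mTg. Far from the start sites, too, were the regions of Nampt (-158294 and -164003 bp), Rora (-124653 bp), Hlf (63959 bp) and Btrc (-34672 bp). Btrc encodes a ubiquitin ligase subunit, and Npas2 a paralog of CLOCK.

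MED1, a subunit of the Mediator complex that joins enhancers to RNA polymerase II, was mapped in 1 library per muscle, so these counts have no replicate check. For ChIP-seq of factors, unlike the histone marks, Quad and Sol samples were each pooled from several animals. In Quad 5 of the 10 clock genes had a MED1 peak (Per3, Cry2, Nr1d1, Nr1d2 and Dbp), against 18.1% of genes with an H3K27ac peak there. In EDL it was 4 (Per3, Cry2, Nr1d1 and Nr1d2), against 4.55%, in Sol 3 (Per3, Cry2 and Nr1d2), against 21.1%, and in Dia 2 (Per1 and Nr1d2), against 12.3%. Nr1d2 was the only one of the 10 with a MED1 peak in all 4 muscles, in each of them with a peak in its first exon or intron. The strongest was at the Dbp promoter in Quad, with a peak score of 19.2 (the authors' score, taken here to be scaled tags) and rank 61 of 3593, and the Quad peak at Nr1d2 (score 12.1, rank 251) overlaps the ATAC peak with 3 E-boxes printed above. NFAT, a calcium-responsive transcription factor, had a peak at 0 of 10 clock genes in Quad, where 2.06% of genes had one, and at 4 of 10 in Sol (Arntl, Clock, Per2 and Cry1), where 49.7% had one. The best of them was in Cry1 intron 1, at rank 1064 of 39661.

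Per1 and Dbp also had the strongest accessibility of the 10 genes. The strongest ATAC peaks of Per1 and Dbp ranked 72 and 80 of 44911, at 48.7 and 48.3 depth-scaled tags, and those of Nr1d2, Cry2, Nr1d1, Arntl and Per2 ranked 191, 306, 505, 537 and 695. Per3 (1787), Cry1 (3115) and Clock (16557) followed. This is a description over 10 genes of 1 pooled list.

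Of the clock genes with a start site peak within 1 kb in all 8 H3K27ac lists (Arntl, Clock, Per3 and Cry1), only Arntl spanned at least 20 percentile points over the groups, from 70.7 in Quad to 90.9 in Sed. The genes whose start site percentile was most like it over the 8 groups, out of 4062, were Fchsd2 (Pearson's r = 0.94), Zbtb34 (0.94) and Fyn (0.92). These are descriptions over 8 points and come with no p.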

How the data were processed

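Chromatin of mouse muscle was profiled by ChIP-seq and ATAC-seq. The authors aligned ChIP-seq reads to mm10 with Bowtie and ATAC-seq reads with Bowtie2, and called peaks with HOMER (its differential peak routine for replicates, with DESeq2, 2-fold over input and a false discovery rate of 0.05). The deposited lists give log2 levels per library, normalized by the authors within each list, a log2 fold over input, an adjusted p-value over input as computed by the authors, and a peak score. The score of the deposited MED1 and NFAT lists was taken to be scaled tags. The deposited ATAC signal is tags scaled to a fixed depth. The authors' differential lists also hold fold changes and p-values of their comparisons, which were not used, and 5 lists of intervals without levels or gene names were not used here.

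Levels were divided by peak length in kb and ranked within each list. Lists were compared only through regions matched one to one, with no test, since they were normalized separately. The 4 differential lists were tested with limma 3.58.1 in R 4.3.3 (two-sided, Benjamini-Hochberg over the list, adjusted p under 0.05), which was tested on simulated data. Tables and words were made with Python 3.11.15, pandas 2.3.3, numpy 2.4.6, scipy 1.17.1 and pysam 0.24.0. Gene names and coordinates are those of the lists and of RefSeq.

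Named genes were the 10 clock genes, any of 20 other clock genes with a differential region, and the 3 genes most like a clock gene whose start site percentile spanned at least 20 points. The clock genes and lists were chosen with earlier results of these data known. Alternatives covered the overlap, the length scale, centring, the fold, normalization, the replicate block and each replicate left out, and those on the scale of the rank, single replicates, whole-peak ranges and wider ATAC windows were chosen after seeing the data. Results for some of the other clock genes are not reported here.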

Additional observations from a re-analysis of the deposited data

Results flagged for a closer look

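H3K4me2 per kb at the start of Per3 differed by 0.64 (centred log2) between Ex and Sed (region at 1704 bp) and by -0.26 between mTg and Wt (region at 281 bp), with every replicate of the first higher and every replicate of the second lower. The Per3 peak was 5.38 kb in Sed and 3.32 kb in Ex, and over the whole peak the values were -0.01, with overlapping replicates, and -0.53, so the opposite directions hold only per kb. At Dbp the differences per kb were 0.04 (region at 1424 bp), with the Sed and Ex replicates touching at the printed digits (0.8 and 0.86 against 0.86 and 0.89), and -0.26 (region at 3056 bp). Over the whole Dbp peak they were -0.44 and 0.38, both with the direction turned. The difference between the contrasts was not tested for either gene.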

How the results depend on the processing

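Counting only peaks within 10 kb of the start site left 123 of the 198 H3K27ac and 142 of the 225 H3K4me2 peaks. For H3K4me2, 4 clock genes passed the 95th percentile in all 8 lists by the level of the whole peak and 4 by the authors' peak score, and 1 to 2 with single replicates (chosen after seeing the data), in place of 2. The count of H3K27ac regions apart (3 over 11 pairs) was 1 at 80% overlap, 5 at any overlap, 8 for the whole peak, 7 without centring, 25 at 1.5-fold and 2 to 5 with a replicate left out. For H3K4me2 (1) it was 3 at any overlap, 6 for the whole peak, 5 without centring, 19 at 1.5-fold and 0 to 2 with a replicate left out. With the replicate block, pairing libraries by number, both counts were 0. The labels do not say that a number marks a shared batch, and the correlations of same-numbered libraries over the differential lists were 0.11, 0.14, -0.04 and -0.24, so the samples share only a number. At the Arntl intron 1 region the block left -0.81 (limma adjusted p = 3.66e-06), and leaving out a replicate gave -1 to -0.61, the last without Ex replicate 2 (limma adjusted p = 0.0638). Quantile normalization gave 0.03 (limma adjusted p = 1) by construction, as the list holds only regions lower in Ex. Depth was lowest, at 6.41 M tags, in mTg replicate 1 of H3K4me2.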
